A study of Sus scrofa with 21 samples.

Results

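The OASL-high piglets were the 4 animals, of 21 in all, whose distal small intestine held 25 or more counts of OASL messenger RNA per 1000000 counts (CPM); the other 17 piglets lay below that level. They were chosen by this measured value, whatever their diet, so the difference between the 2 sets of piglets is a description of what accompanied OASL and carries no p-value. All animals were Danish Landrace/Yorkshire piglets of 24-25 days of age with no genetic modification named, and were fed milk replacer. In 10 control piglets the replacer was unchanged and in 11 starch piglets wheat had been added to it. Total RNA of whole tissue, taken at euthanasia, was sequenced, and each piglet gave 1 library of 6719264 to 8610458 counts. The labels give no litter, sex or preparation batch, and the piglet is the replicate. In whole tissue, fewer cells of a type and less RNA per cell cannot be told apart.

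Type I and type III interferons are secreted when a cell senses viral or misplaced nucleic acid. They bind receptors whose kinases activate a transcription factor complex that contains STAT2 and IRF9 and switches on the interferon-stimulated genes, a large group whose products block viral entry, replication and translation. Interferon gamma, made by T and natural killer cells, acts through a receptor of its own and favours another group that includes guanylate-binding proteins, IRF1, T cell-attracting chemokines and antigen presentation. In the gut epithelium, type III interferon is known as a main antiviral signal, and OASL is an interferon-stimulated relative of the oligoadenylate synthetases that enhances signalling by the RNA sensor RIG-I.

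Libraries of 3 of the other piglets stood apart. Control 5, control 8 and starch 3 had enterocyte scores of -3.59, -4.06 and -4.97, against -0.02 to 1.55 in the remaining 18 piglets, and granulocyte scores of 2.77, 3.83 and 4.38, against at most 0.49. A score is the mean over a list of each gene's log2(CPM + 0.5) after subtraction of the gene's mean over the 21 piglets. Where stated, list medians and gene differences are also given without these 3 libraries. Differences without such a statement include them. The libraries of the OASL-high piglets held 7031097 to 8597718 counts and 13.2% to 16.6% mitochondrially encoded counts. Those of the others held 6719264 to 8610458 counts and 13.2% to 26.4% mitochondrially encoded counts.

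OASL itself spanned a 359-fold range. It stood at 38.5 CPM in control 9, 41.2 in control 2, 151.5 in starch 7 and 236.1 in starch 9. The piglets just below the threshold were starch 11 with 19.2 CPM, control 6 with 14.0, starch 4 with 13.9, control 4 with 10.2 and control 3 with 9.73. The remaining 12 piglets lay between 0.657 and 3.42 CPM, so that the 5 nearest piglets formed a range between the lowest and the highest animals. OASL-high animals occurred in both diets, as 2 of 10 control piglets (20%) and 2 of 11 starch piglets (18.2%), with no detectable association (Fisher's exact test, two-sided, p = 1). With 4 OASL-high animals in all, this test has little power, and no conclusion on diet is drawn from it.

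The other 4 marker genes were higher in each OASL-high piglet than in each of the 17 others. ISG15, a ubiquitin-like protein that is attached to viral and host proteins, stood at 77.5 CPM in control 2, 127.2 in control 9, 200.1 in starch 7 and 353.6 in starch 9. In the other piglets ISG15 ranged from 5.57 CPM through a median of 11.0 to 56.4 in starch 4. RSAD2, which encodes viperin, the enzyme that makes a chain-terminating nucleotide, stood at 44.5 CPM in control 2, 94.3 in control 9, 151.8 in starch 7 and 320.2 in starch 9, against a lowest value of 2.12, a median of 8.01 and a highest of 36.1 in control 3. For both genes starch 9 was the highest animal and control 2 the lowest of the 4, and the gap to the next piglet was narrow beside the range within the 4. IFIT1, which binds viral RNA lacking a host cap, stood at 296.8 CPM in control 2, 351.0 in control 9, 585.2 in starch 7 and 948.4 in starch 9, with 32.7, 63.2 and 181.9 CPM as the lowest, median and highest of the others. MX2, a dynamin-like GTPase that restricts viral capsids, stood at 31.7, 59.9, 123.7 and 253.6 CPM in the same order of piglets, with 2.63, 10.5 and 28.4 CPM in the others. The order of the 4 piglets was thus the same in these 4 genes, whereas for OASL control 9 was below control 2.

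**Figure D1:**
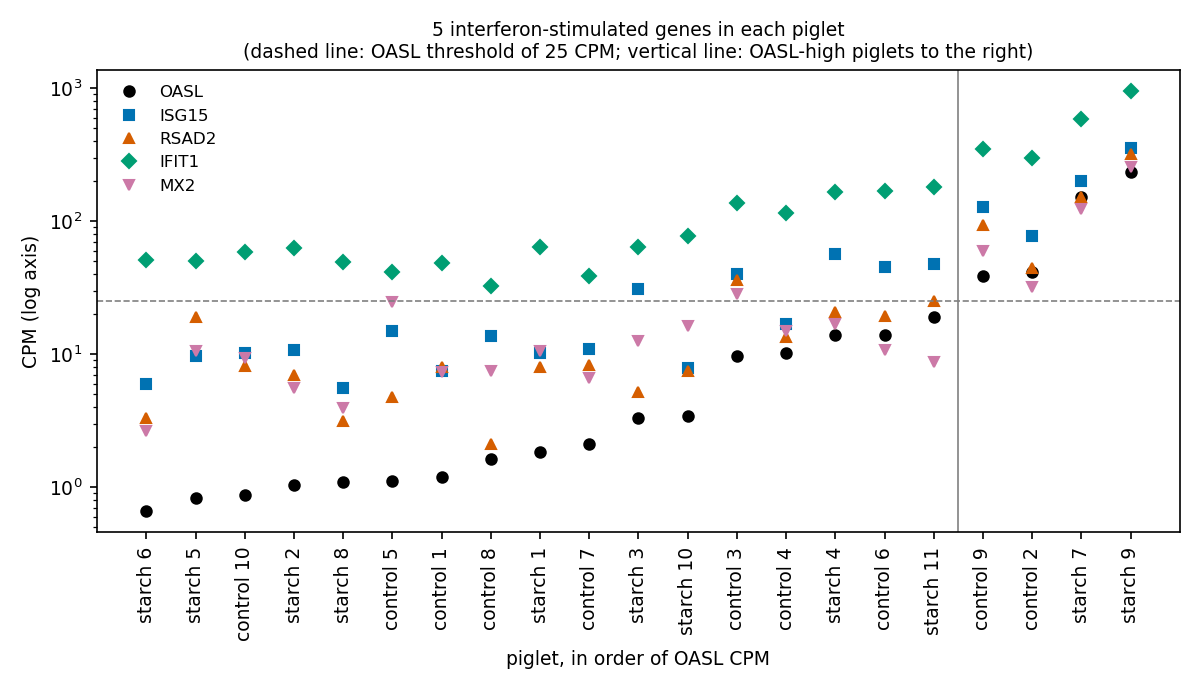
CPM of the 5 marker genes (log axis) in each of the 21 piglets, which are placed in order of their OASL CPM; the dashed line marks 25 CPM and the vertical line separates the 4 OASL-high piglets. IFIT1 has the highest CPM of the markers in each piglet, on a scale not corrected for gene length. OASL covers the widest range, from 0.657 to 236.1 CPM.

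Summed up as the difference of mean log2(CPM + 0.5), OASL-high minus others, the markers differed by 4.67 for OASL, 3.67 for RSAD2, 3.37 for ISG15, 3.09 for MX2 and 2.78 for IFIT1. The SD among the OASL-high piglets on this scale was 1.32 for OASL, 1.19 for RSAD2, 0.93 for ISG15, 1.29 for MX2 and 0.76 for IFIT1. Among the others the SD was 1.41 for OASL and 0.79 for IFIT1. On the length-scaled FPKM values, which allow levels of different genes to be compared, the OASL-high mean was 428 for ISG15, 385 for IFIT1, 149 for RSAD2, 118 for OASL and 56.3 for MX2. IFI6, an antiviral membrane protein, had the highest such mean of the effectors examined, with 676 FPKM, and MX1 reached 215 FPKM.

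Of 13642 genes with a mean of at least 1 CPM over the 21 piglets, 19 were higher in each OASL-high piglet than in each other piglet, which is 0.139% of the genes. The opposite pattern, lower in each OASL-high piglet, was seen for 0 genes (0%). A difference of at least 1 on the log2 scale occurred for 177 genes (1.3%), and one of -1 or less for 61 genes (0.447%). The rule used this contrast, so these shares describe the piglets and nothing is read from them, and a gene could pass the abundance filter through the OASL-high piglets alone. Of the 19 genes, 10 were on the list of antiviral effectors and 14 on that list or those of sensors, signalling, feedback or ISG15 conjugation, 3 had a symbol but were on no list, and 2 had no symbol. OASL is counted among the 19 and among the effectors, and its separation is fixed by the rule.

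The 10 effectors were the 5 markers and MX1, DDX60, IFI44, HERC5 and IFI44L. MX1, the cytoplasmic GTPase that traps incoming viral nucleoproteins, stood at 164.3 CPM in control 2, 384.9 in control 9, 588.5 in starch 7 and 528.0 in starch 9, and at 21.2 to 162.1 CPM in the others. It was the 1 gene of the 19 whose highest value was in starch 7, and control 3, with 162.1 CPM, lay just below control 2. DDX60, a helicase linked to RNA sensing, stood at 180.8, 209.9, 398.6 and 478.5 CPM in the same order, against 21.3 to 117.1 CPM. HERC5, the ligase that attaches ISG15 to newly made proteins, averaged 332 ± 150 CPM (SD, n = 4) against 79.1 ± 31.8 (SD, n = 17), a log2 difference of 2.08. IFI44 averaged 90.1 ± 33.4 CPM against 18.8 ± 7.61, a difference of 2.26. Its chromosomal neighbour IFI44L averaged 301 ± 53.3 CPM against 121 ± 39.2, a difference of 1.36.

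Cytosolic RNA sensors were also among the 19 genes. RIGI (RIG-I), which recognises uncapped RNA ends, stood at 70.8 CPM in control 2, 150.1 in control 9, 153.4 in starch 7 and 315.3 in starch 9, and ranged from 15.1 to 64.4 CPM in the others. DHX58, whose product LGP2 regulates the other sensors of this family, stood at 65.6, 58.2, 117.0 and 174.3 CPM in that order, with 6.31 to 36.9 CPM in the others. IFIH1 (MDA5), the sensor of long double-stranded RNA, had 68.0, 77.9, 107.9 and 141.0 CPM, with 19.04 to 63.2 CPM in the others. Control 3 was the highest of the other piglets for each of these 3 sensors. The log2 differences were 2.36 for RIGI, 2.43 for DHX58 and 1.28 for IFIH1.

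USP18, which removes ISG15 from its targets and shuts off the type I receptor, averaged 65.7 ± 30.01 CPM in OASL-high piglets and 17.1 ± 6.09 in the others, a log2 difference of 1.87. The 3 genes with a symbol outside the lists were FBXO39, ASB13 and SPATS2L, with log2 differences of 2.11, 1.10 and 0.66. FBXO39 and ASB13 encode substrate receptors of ubiquitin ligases. FBXO39 stood at 27.4 CPM in control 2, 21.5 in control 9, 40.8 in starch 7 and 51.8 in starch 9, against 4.23 to 14.0 CPM in the others. In the RefSeq gene order FBXO39 is separated by 1 protein-coding gene from XAF1, a known interferon-stimulated gene. SPATS2L had the smallest difference of the 19, with 125.3 to 165.4 CPM against 66.8 to 113.0 CPM. The genes without a symbol were ENSSSCG00000034802.1, with 50.6 to 106.0 CPM against 4.36 to 47.4, and ENSSSCG00000016262.3, with 125.9 to 222.2 CPM against 49.6 to 125.0.

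**Figure D2:**
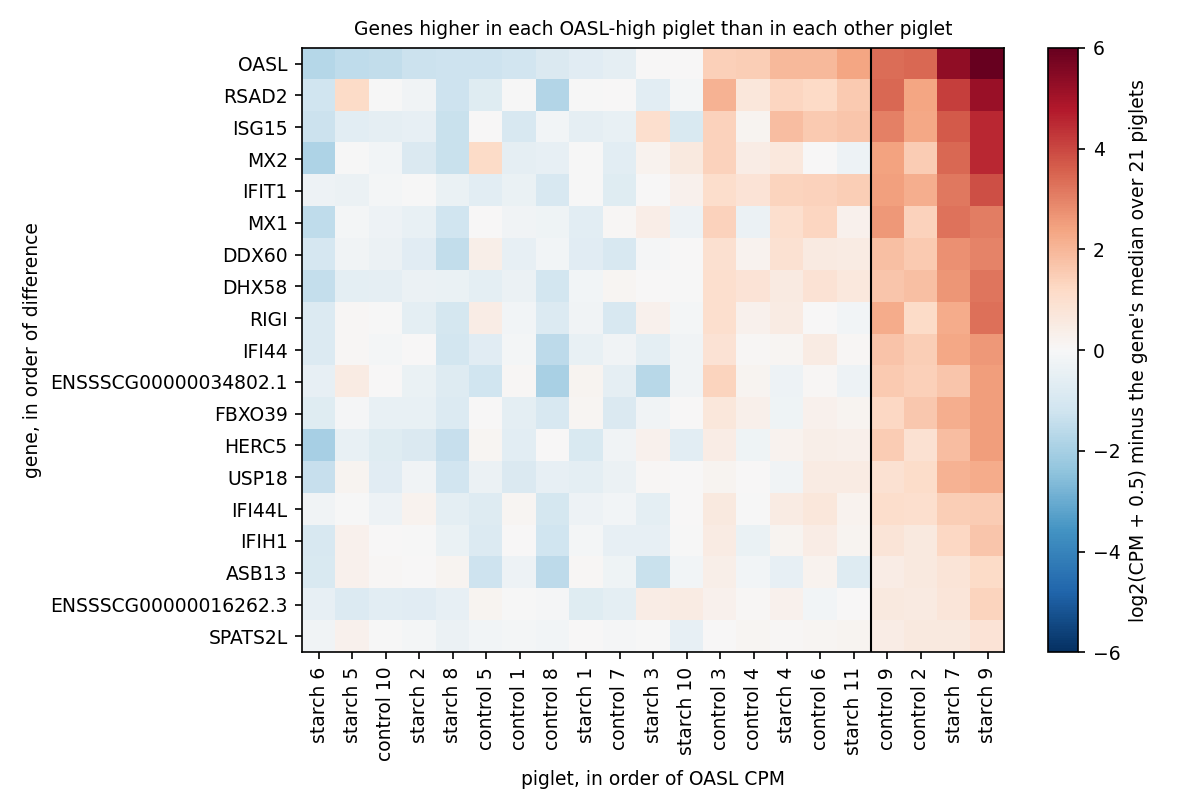
Colour gives log2(CPM + 0.5) minus the gene's median over the 21 piglets for the 19 genes higher in each OASL-high piglet than in each other piglet; columns are piglets in order of OASL, with the 4 OASL-high piglets right of the line. Starch 9 is highest for 18 of the 19 genes, and the lower rows, such as SPATS2L with a difference of 0.66, are pale throughout.

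Levels of these genes were uneven within the 4 piglets. Starch 9 was the highest of them for 18 of the 19 genes, and both starch piglets were above both control piglets for 18. The lowest was control 2 for 13 genes and control 9 for 6. Within the starch animals alone the OASL difference was 5.88 and that of RSAD2 4.604; within the control animals alone they were 3.46 and 2.73. This ordering of 2 against 2 animals was not tested.

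The limits of the 19 are set by single piglets. Without control 2, 46 genes (0.337%) had no overlap, and without control 9, 33 (0.242%) had none, with the 19 among them both times. At a threshold of 10 CPM, which adds starch 11, control 6, starch 4 and control 4, OASL was the 1 gene left (0.00733%), as the rule requires. At 50 CPM, which keeps starch 7 and starch 9, there were 69 (0.506%). Fewer OASL-high animals separate more genes by chance alone, so the larger counts are not read as a wider response. With library sizes scaled by the trimmed mean of M-values (TMM), 13 of the 19 had no overlap, while USP18, IFI44L, IFIH1, ASB13, SPATS2L and ENSSSCG00000016262.3 overlapped by at least 1 piglet.

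Several classical effectors missed separation because of 1 or 2 piglets. Each gene can be compared in 68 pairs of 1 OASL-high and 1 other piglet. IFI6 was higher in 67 of them, with 219.3 CPM in control 2, 54.8 in control 9, 482.2 in starch 7 and 165.9 in starch 9. Control 6 had 134.2 CPM of IFI6, which placed it above control 9. OAS2, which makes the oligoadenylates that activate RNase L, was higher in 66 pairs and averaged 311 CPM against 82.0, and EIF2AK2 (PKR), which halts translation on double-stranded RNA, was higher in 67 and averaged 44.6 CPM against 14.5. CMPK2, the neighbour of RSAD2, was higher in 67 pairs, as was IRF7, the transcription factor that amplifies interferon production, with 170.0 to 426.1 CPM against 42.0 to 190.2. These near misses were picked after their values were seen. Of 43 effectors that passed the filter, 31 were higher in at least 60 pairs, against 133 of all 13642 genes (0.975%).

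Of 62 effector symbols listed, 44 were matched to a gene, and HELZ2 was below the filter. The median log2 difference of the 43 others was 1.17, with 41 above 0 and 24 at 1 or more. Over all 13642 genes the median was 0.08, with 67.2% above 0 and 1.3% at 1 or more. The effector score ran from 0.66 in control 2 to 1.89 in starch 9, and from -1.07 to 0.52 in the other piglets. Without control 5, control 8 and starch 3 the effector median was 1.21 and 25 effectors were at 1 or more, so that it was as large without those 3 libraries. Neighbouring and similar genes such as MX1 and MX2, IFIT1, IFIT2 and IFIT5, HERC5 and HERC6, or OAS2 and OASL could exchange reads, which counts per gene do not show.

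The ISG15 conjugation pathway was high where OASL was high. All of its 7 members differed by more than 0, and 6 by 1 or more, with a median of 1.70. Of all genes, 67.2% were above 0 and 1.3% at 1 or more. UBA7, the activating enzyme, averaged 127 CPM against 48.5, and UBE2L6, the conjugating enzyme, 123 against 47.4. HERC6 averaged 231 CPM against 71.9. TRIM25, with 75.4 CPM against 43.4, had the smallest difference of the pathway, 0.77.

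Differences of some effectors were well below the effector median of 1.17. The 5 with the smallest absolute difference among those of at least 5 CPM were PHF11 with 0.52, MOV10 with 0.48, SHFL with 0.20, GBP1 with -0.03 and SAMHD1 with -0.04. SAMHD1, which depletes deoxynucleotides, stood at 11.1 to 29.5 CPM in OASL-high piglets, and its highest values were 126.4 CPM in control 5 and 70.8 in starch 3, libraries low in enterocyte genes. IFIT2, named here after its values were seen, averaged 53.6 CPM against 12.2 but stood at 10.2 CPM in starch 7, below the median of the other piglets (10.3), although IFIT1 was at 585.2 CPM in the same library.

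Among the 16 sensors and adaptors, each difference was above 0, against 67.2% of all genes. The median was 0.44, but 4 genes reached 1, as did 1.3% of all genes. The 4 were DHX58, RIGI, IFIH1 and ZBP1, a sensor of Z-form nucleic acid that averaged 24.6 CPM against 6.83. The genes around them, named after their values were seen, overlapped widely. The endosomal receptor TLR3 had 23.2 to 43.7 CPM against 14.1 to 43.8, and MAVS, the adaptor of RIG-I and MDA5, had 47.3 to 60.6 CPM against 19.9 to 62.5. The kinase TBK1, downstream of MAVS, differed by 0.01.

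Signalling genes, apart from IRF7 with 1.68, had smaller differences than most effectors. IRF9 differed by 0.68, STAT2 by 0.63 and NMI, a STAT-binding protein, by 0.54, whereas the median over the 16 genes was 0.21. IRF1, singled out after its values were seen, was highest in control 3 with 328.4 CPM and starch 4 with 295.4 CPM, while the OASL-high piglets held 71.8 to 139.5 CPM. Of the inhibitors, TRIM21 differed by 0.72 and TRIM38 by 0.52, and SOCS3, a feedback inhibitor of cytokine receptors, by -0.98, with 1.14 to 11.4 CPM against 1.99 to 52.4 CPM and its highest level in starch 3. The SOCS3 difference was -0.55 once the 3 libraries low in enterocyte genes were left out, and likewise -0.55 when control 2 was.

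Of 31 interferon symbols, 6 were matched, and several of these messages were at or near the detection limit. No gene of the type III (lambda) interferons was among the 6, so their level is not known here. IFNB1 was at 0 counts in the 4 OASL-high libraries, where 3 counts would equal 0.348 to 0.446 CPM across libraries, and reached 1 count in starch 4. IFN-DELTA-1 was likewise at 0 in the 4, and IFNK did not exceed 3 counts in any piglet. IFN-ALPHA-15 reached 2.75 CPM in control 9, its highest value, and 0 to 1.78 CPM in the 17 other piglets. IFNE, the epithelial type I interferon that is made without infection, was present at 3.84 to 7.02 CPM against 0.12 to 7.36 CPM. IFNG was at most 1.01 CPM in the OASL-high piglets and up to 8.71 CPM in starch 3. Intervals at such counts cover counting error only.

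The receptor chains differed little. IFNAR1 and IFNAR2, the type I receptor, differed by 0.27 and -0.06. IFNLR1, the specific chain of the type III receptor, differed by 0.51, with 9.94 to 17.7 CPM against 0.75 to 21.2, and by 0.07 without control 5, control 8 and starch 3. IFNGR1 and IFNGR2, the receptor of interferon gamma, differed by 0.17 and -0.18.

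Targets of interferon gamma did not separate the sets. Of 20 measured members, 6 had a difference above 0, against 67.2% of all genes, and none reached 1. The median was -0.09, against 0.08 over all genes. Without control 5, control 8 and starch 3 the median was 0.15, and again 0 members reached 1. GBP1, a guanylate-binding protein that is also on the effector list, had 368.6 CPM in control 2, 372.0 in control 9, 186.6 in starch 7 and 350.3 in starch 9, against 44.1 to 1573 CPM in the others. The chemokine CXCL9 stood at 34.4, 29.4, 6.10 and 25.2 CPM in the same piglets, against 4.24 to 144.2 CPM, and IDO1, which degrades tryptophan, at 2.56, 3.16, 4.11 and 6.16 CPM, against 0.58 to 159.4 CPM, or to 30.5 CPM without those 3 libraries. For CXCL10, singled out after its values were seen, starch 7 held 9.81 CPM and starch 9 37.7 CPM, while starch 3 held 103.0 and starch 4 94.4. Starch 3, starch 4, control 3 and control 5 had the 4 highest levels of GBP1, CXCL9 and CXCL10, and none of these piglets was in the OASL-high set. The differences were -0.03 for GBP1, -0.19 for CXCL9, 0.11 for CXCL10 and -0.42 for IDO1 with all piglets. Without control 5, control 8 and starch 3 they were 0.16, 0.18, 0.39 and 0.26. Among the members that differed most were also ICAM1 and CD274, each -0.55 with all piglets and -0.23 and -0.22 without the 3, and NLRC5 (0.59 and 0.70).

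**Figure D3:**
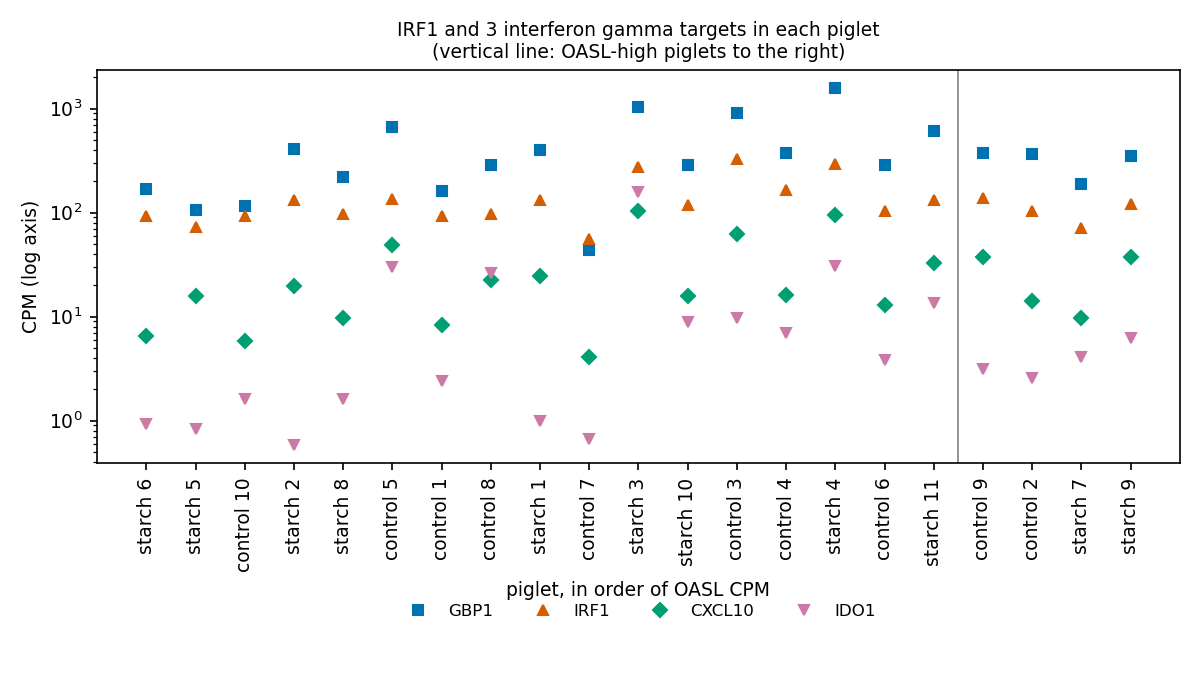
CPM (log axis) of IRF1 and the interferon gamma targets GBP1, CXCL10 and IDO1 in each piglet, in order of OASL CPM; the 4 OASL-high piglets are right of the line. The highest values are left of the line, such as 1573 CPM of GBP1 in starch 4 and 159.4 CPM of IDO1 in starch 3.

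**Figure D4:**
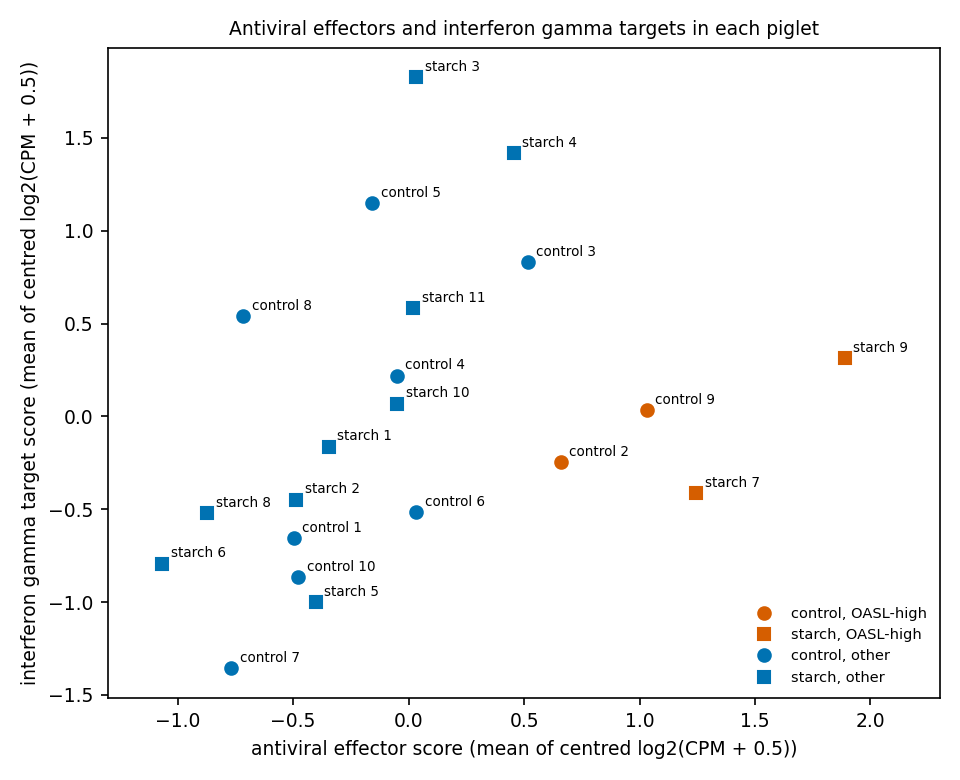
Score of the antiviral effectors (horizontal) against that of the interferon gamma targets (vertical), both as means of centred log2(CPM + 0.5), for each piglet; colour marks the OASL-high set and shape the diet. The OASL-high piglets lie at 0.66 to 1.89 on the effector axis but between -0.41 and 0.31 on the gamma axis, where the other piglets span -1.36 to 1.83.

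Antigen presentation showed small differences. The 13 measured genes of the class I pathway had a median of 0.29 and none reached 1. TAP1, which pumps peptides into the endoplasmic reticulum, had 250.4 to 410.1 CPM against 67.2 to 682.2, with its highest level in starch 4. ERAP2, which trims those peptides, had the largest difference of the list, 0.71, with 121.0 to 187.7 CPM against 54.5 to 163.7. For class II the median over 6 genes was 0.07, which was 0.32 without control 5, control 8 and starch 3 and -0.08 without starch 9. The inflammatory cytokines and chemokines had a median of -0.40 over 8 genes, led by IL1A with -0.89 and by CXCL2 and CXCL8 with -0.69 each. The scores of this list were highest in starch 3 (2.62), control 5 (1.77) and control 8 (1.39) and at most 0.37 elsewhere, and without those 3 libraries the median was 0.05. IL1A, CXCL2 and CXCL8 then differed by -0.28, -0.01 and -0.24. Among cell death genes CASP1, the inflammasome protease, differed by 0.97, with 368.7 to 665.6 CPM against 66.8 to 439.5. Without control 5, control 8 and starch 3 CASP1 differed by 0.68.

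**Figure D5:**
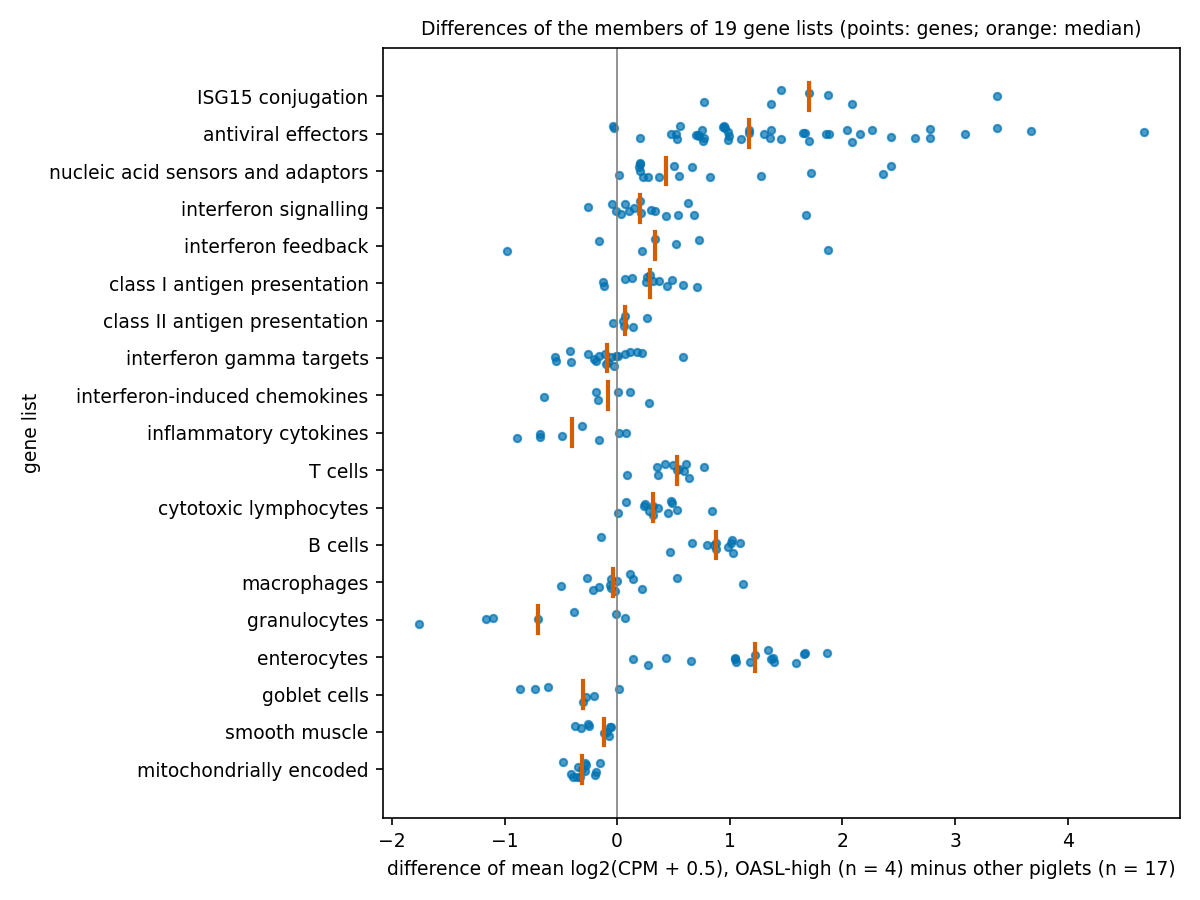
Each point is the difference of mean log2(CPM + 0.5), OASL-high minus other piglets, of 1 gene that passed the filter, by gene list; the orange bar is the list's median. Medians are 1.70 for ISG15 conjugation and 1.17 for antiviral effectors, -0.09 for interferon gamma targets and 1.22 for enterocytes, the last being 0.20 without control 5, control 8 and starch 3.

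Markers of cell types moved with the split in several lists, and their part in it was not tested. Enterocyte markers differed by a median of 1.22, with 17 of 17 above 0 and 13 at 1 or more. Over all genes 67.2% were above 0 and 1.3% at 1 or more. Without control 5, control 8 and starch 3 the enterocyte median was 0.20 and 0 of 17 reached 1. FABP2, the intestinal fatty acid-binding protein, held 443.7 to 3918 CPM in OASL-high piglets and 2.82 to 1900 CPM in the others, where the lowest was starch 3. The summed level of the list was 20292 to 43885 CPM against 1412 to 46850 CPM. Granulocyte markers differed by a median of -0.70 with all piglets and 0 without those 3, with S100A12 at 0 to 1.06 CPM against 0 to 397.3 and MMP8 at 0 in the 4 piglets. Goblet cell markers had a median of -0.30, led by CLCA1 with -0.86 and MUC2 with -0.61, and of -0.11 without the 3. CLCA1 and MUC2 then differed by -0.70 and -0.30.

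With those 3 libraries left out, 89 genes differed by 1 or more and 37 by -1 or less. Of these, 77 and 25 were among the 177 and 61 counted over all piglets. Effectors made up 24 of the 177 and 25 of the 89.

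B cell markers had a median of 0.88, and it rested on starch 9. The B cell score was 3.73 in starch 9 and -0.48 to -0.24 in the other 3 OASL-high piglets, and without starch 9 the median was -0.22. CD79A, a chain of the B cell receptor, stood at 63.3 CPM in starch 9 and at 2.12 to 3.70 CPM in the other 3, while starch 10, an animal outside the set with 3.42 CPM of OASL, had 87.1 CPM. T cell markers had a median of 0.53, with 11 of 11 above 0, against 67.2% of all genes, and none at 1. Their summed levels were 133 to 373 CPM against 52.2 to 324 CPM. Their score was 1.31 in control 2 and -0.18 to 0.48 in the other 3 OASL-high piglets, and without control 2 the median was 0.20. Cytotoxic lymphocyte markers had a median of 0.31, with summed levels of 138 to 524 CPM against 46.7 to 781 CPM. Their median was 0.06 when control 2 was left out, 0.47 when starch 9 was, and 0.53 when the 3 libraries low in enterocyte genes were. Of 9 markers of plasmacytoid dendritic cells, known as strong interferon producers, 6 were measured and had a median of 0.28, which was 0.12 without starch 9. Their score was 0.87 in starch 9 and -0.09 to 0.13 in the other 3 OASL-high piglets, and 1.23 in starch 10. The defining genes CLEC4C, LILRA4 and IL3RA were not matched to a gene here. Macrophage markers had a median of -0.03, which changed sign when control 9 or starch 7 was left out (0.16 and 0.04) and without control 5, control 8 and starch 3 (0.41). CD86, a costimulatory molecule, was the exception among them, with a difference of 1.12 and 32.1 to 53.3 CPM against 6.23 to 55.4.

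Mitochondrially encoded messages differed by a median of -0.32, with 0 of 13 above 0, against 67.2% of all genes. Immediate early genes, which respond to handling within minutes, differed by a median of -0.52 over 6 genes, led by FOS with -0.79. The latter median was -0.27 without control 5, control 8 and starch 3, where FOS differed by -0.27, and -0.29 without control 2. These shifts accompany the interferon differences and their part in them was not tested.

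OASL also varied among the 17 piglets below the threshold, and many interferon-stimulated genes varied with it there. Over those piglets Spearman's rho with OASL had a median of 0.593 over the other 18 of the 19 genes, from -0.047 for ASB13 to 0.877 for DHX58, and the median of Pearson's r was 0.626. For the 42 effectors other than OASL the median rho was 0.504 and r 0.533, with 37 rho values above 0, against a median rho of -0.044 over all genes. Leaving out starch 11 and control 6, the piglets farthest from the median of OASL, gave medians of 0.459 (rho) and 0.611 (r) for the 18, and 0.471 and 0.537 for the effectors. These are descriptions over 17 or 15 piglets whose libraries share the same scaling, and carry no p-value. IFIT2 (0.07), EIF2AK2 (-0.13) and ADAR (-0.03), an RNA-editing enzyme, had rho values near 0 there although their differences across the split were 2.04, 1.67 and 0.99; they were chosen after these values were seen. The interferon gamma targets had a median rho of 0.445 and the class I genes of 0.615 within the 17, although their medians across the split were near 0 or small. T cell, cytotoxic lymphocyte, class II and constitutive proteasome genes had medians of 0.583, 0.532, 0.512 and 0.507 there. Values like those of the effectors were therefore not particular to interferon-stimulated genes. Enterocyte, smooth muscle and mitochondrially encoded genes had lower medians, of 0.096, 0 and -0.355.

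Over the 21 piglets, the 10 genes of at least 5 CPM whose order of piglets was most like that of OASL were DHX58 (rho 0.94), EPSTI1 (0.93), IRF9 (0.89), UBA7 (0.88), ISG15 (0.87), HSH2D (0.87), HERC5 (0.86), UBE2L6 (0.86), DDX60 (0.86) and PARP12 (0.85). IRF9, the DNA-binding partner of STAT2, was among them although its levels, 157.2 to 214.6 CPM against 80.4 to 202.1, overlapped between the sets. HSH2D, an adaptor protein of lymphocytes, averaged 34.1 CPM against 5.68.

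Many genes of the response lie side by side in the genome. In the RefSeq order of protein-coding genes, RSAD2 and CMPK2, MX1 and MX2, IFI44 and IFI44L, HERC5 and HERC6, OAS1 and OAS2, and DTX3L and PARP9 were direct neighbours, and IFIT1 and IFIT2 flanked IFIT3. XAF1, OAS1 and IFIT3 were not analysed here. In MX1 and MX2 and in IFI44 and IFI44L both members were among the 19, whereas of each other group at most 1 gene was.

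The diet comparison asked whether starch feeding moved the same genes. No interferon-stimulated gene was called different between the diets by edgeR's quasi-likelihood test with Benjamini-Hochberg adjustment over 13127 genes. The test called 0 genes (0%), with 174 genes (1.33%) at an unadjusted p below 0.05. DESeq2 and limma, over 18630 and 13342 genes, also called 0, with 293 and 227 genes at that level. Without control 5, control 8 and starch 3 edgeR had 382 genes at that level and again called 0. The lack of calls is not read as a lack of diet effect. OASL ranged from 0.873 through a median of 5.92 to 41.2 CPM in control piglets and from 0.657 through a median of 3.31 to 236.1 CPM in starch piglets, so that the median was lower and the highest value higher with starch. Its mean was 12.1 ± 15.4 CPM (SD, n = 10) with the unchanged replacer and 39.4 ± 78.9 CPM (SD, n = 11) with starch. The fold change fitted by edgeR was 1.64 on the log2 scale, with a standard error of 1.03 and an adjusted p of 0.99982. The corresponding fold changes were 1.11 for RSAD2, 1.07 for MX2, 0.87 for ISG15 and 0.68 for IFIT1. Their standard errors were 0.81, 0.70, 0.74 and 0.59 in that order. Of 43 effectors tested, 39 were higher in starch, with a median of 0.26 against 0.00 over all genes, of which 51.1% were higher. Without starch 9 the effector median was 0.06 and the OASL fold change 0.71.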

How the data were processed

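Intestinal RNA of 21 piglets was analysed. The sample titles gave the group, as control or treatment, and the study's design text gave the diet. The authors deposited 1 table per piglet with an expected count and an FPKM value for each transcript, per the file headers. The submitters' processing notes name HISAT and DESeq2, without their roles. The genome build and the counting program, with its handling of strand and of shared reads, were not given in the sources used here. Expected counts were summed per gene, and CPM is a gene's sum divided by the library total. FPKM values were summed likewise and used as an alternative and to compare levels between genes. Gene identifiers were paired with symbols through a table of pig gene names, which named 76.5% of 18661 genes.

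Differences are of mean log2(CPM + 0.5), for genes with a mean of at least 1 CPM. They carry no test, since OASL chose the sets. The diets were compared with edgeR 4.0.16 (quasi-likelihood test, TMM, filterByExpr, rounded expected counts; R 4.3.3), checked on simulated counts, and with DESeq2 1.42.0 and limma 3.58.1 as alternatives. The 31 gene lists and the sets were chosen with earlier results of these data known, and so give no independent support. Genes named in the text are the markers, genes without overlap, the 4 members of each list with the largest absolute difference (all ligands and receptors), the 5 effectors with the smallest, and the 10 most like OASL; others are said to have been chosen later. Promoter motifs were planned but not analysed here, and a gene of the signalling list is not reported here. The diets share replicate numbers, and whether these pair the piglets is not stated in the labels. Of 10 same-numbered pairs, 4 had deviations correlated above 0.1, with r from -0.34 to 0.50, which does not settle it. The RefSeq gene order is that of Sscrofa11.1.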

Additional observations from a re-analysis of the deposited data

Results flagged for a closer look

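In 7 of 62 groups of 4 to 10 piglets examined, 1 piglet stood far from the nearest of the others. Chance alone flags about 1 in 20 independent groups. The groups here share piglets and genes that vary together, and OASL chose the OASL-high piglets. The 7 of 62 is therefore not read against that rate. Among the OASL-high piglets these were starch 9 for ENSSSCG00000034802.1 (105.958 CPM) and starch 9 for the B cell score (3.73). Among the control piglets control 9 stood apart for RSAD2 (94.3 CPM), MX2 (59.9 CPM), MX1 (384.9 CPM) and RIGI (150.1 CPM), although its OASL level was below that of control 2. Control 1, which was not OASL-high, stood apart among the control piglets for the B cell score (2.07).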

How the results depend on the processing

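The count of genes higher without overlap was 1 (0.00733% of genes) at an OASL threshold of 10 CPM and 69 (0.506%) at 50 CPM. It was 197 (1.44%) within the starch piglets and 83 (0.608%) within the control piglets. When an OASL-high piglet was left out it ranged from 22 (0.161%) to 46 (0.337%). Settings at 50 CPM, within 1 diet or without a piglet compare fewer OASL-high animals. Fewer animals separate more genes by chance alone, so nothing is read from these larger counts. The count was 18 to 20 (0.107% to 0.147%) with TMM scaling, FPKM, other filters, without mitochondrially encoded genes, and without control 5, control 8 and starch 3 (the last chosen after seeing the data). The count of genes lower without overlap was 1 (0.00733%) with TMM scaling and 1 (0.00733%) at 50 CPM. It was 21 (0.154%) within starch, 75 (0.55%) within control piglets and 2 (0.0147%) without mitochondrially encoded genes. The effector median kept its sign in each setting, from 0.907 to 1.59. The interferon gamma target median changed sign at 10 CPM (0.31) and without control 5, control 8 and starch 3 (0.15). The macrophage median changed sign at 10 CPM (0.26), at 50 CPM (0.046), within starch (0.030) and without those 3 (0.41), and ranged from -0.13 to 0.16 with 1 piglet left out. The B cell median was -0.30 within control piglets and ranged from -0.22 to 1.33 with 1 piglet left out. The cause of these changes was not tested. The edgeR test of diet called 0 genes in each setting. With the replicate block (numbers 1 to 10) the log2 fold changes by diet were 0.08 for OASL, -0.062 for ISG15 and -0.042 for MX2, against 1.70 for OASL in the same 20 piglets without the block, which was added later; limma on FPKM gave -0.029 for MX2. The block changed no call, and 0 of 10 pairs correlated best within their own number. DESeq2 replaced the count of starch 9 for OASL, RSAD2 and MX2 as an outlier and gave 0.60 for OASL. Depth limits IFNB1, IFNK and IFN-DELTA-1, which did not exceed 3 counts in any piglet. The promoter motifs were not run.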
